A study of Mus musculus with 18 samples.

Results

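The genes described here encode the subunits of oxidative phosphorylation, the machinery that makes most of the ATP in mitochondria. They comprise 13 genes of the mitochondrial genome and 86 nuclear genes, together 99 of the 27743 genes in the deposited expression table. The mitochondrial genes were taken by name (ND1 to ND6 with ND4L, CYTB, COX1 to COX3, ATP6 and ATP8). The nuclear genes were taken by the start of their symbols: Nduf, Uqcr, Cox4i to Cox8, Atp5, and Sdha to Sdhd. The symbols themselves use no measured value, but the set was chosen by its FPKM differences between the spacer groups and Control, which had been seen beforehand. Differences from Control, and the counts of members called in them, are therefore given as a description from which nothing is read, and only the comparisons between groups of spacers are read as tests. The choice by symbol also takes in Cox7a2l, a factor that joins complexes into larger assemblies, and Ndufa4l2, a relative of the subunit Ndufa4.

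Skin was sampled from mouse flaps 7 days after surgery and treatment. Control flaps received no treatment. In the other 5 groups a printed mesh spacer lay under the flap, and the group names are D15L100, D15L150, D15L200 (the L number differs) and D100L150 and D150L150 (the D number differs). The meshes, printed by a near-field electrostatic method, varied in diameter and in spacing, but the labels do not say which letter stands for which property, and they give no unit. The labels give no strain, age or sex. Each of the 6 groups has 3 libraries. The labels do not state that these came from separate animals, so p-values measure the spread between libraries, which may be technical.

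Oxidative phosphorylation runs through 5 complexes in the inner mitochondrial membrane. Complexes I, III and IV pass electrons from NADH to oxygen and pump protons, complex II feeds in electrons from succinate without pumping, and complex V, the ATP synthase, uses the proton gradient to make ATP. Subunits of all but complex II come from both genomes: the mitochondrial genome encodes a few core subunits, transcribed as long polycistronic RNAs inside the organelle, while the others are nuclear genes whose proteins are imported. Here the mitochondrial members comprise 7 genes of complex I, 1 of complex III, 3 of complex IV and 2 of complex V. The nuclear members comprise 40 genes of complex I, 4 of complex II, 8 of complex III, 17 of complex IV and 17 of complex V, with Ndufa4 counted in complex IV, where it is now placed, and Ndufa4l2 counted by its name in complex I.

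Some mitochondrial genes have near-perfect nuclear copies, and a read from such a gene can be placed in either genome. In the mm10 assembly (GRCm38, GENCODE M21 annotation), 7 unprocessed pseudogenes lie side by side on the minus strand at chr1:24611535-24616197 and copy a run of the mitochondrial genome from COX1 to ND4. A middle stretch of 49 bases of COX3 (MT:8975-9023) and ND4L (MT:10001-10049) is shown with the matching stretch of its copy, Gm28437 (chr1:24613555-24613603) or Gm10222 (chr1:24612528-24612576), because no base differs. All letters are in lower case, since there is no difference to mark.
COX3: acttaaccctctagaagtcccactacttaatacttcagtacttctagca
Gm28437: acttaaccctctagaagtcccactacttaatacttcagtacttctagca
ND4L: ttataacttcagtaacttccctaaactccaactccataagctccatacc
Gm10222: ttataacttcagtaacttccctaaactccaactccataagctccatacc

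The next sequence shows why ATP6 and ATP8 cannot be counted apart everywhere. The end of ATP8 and the start of ATP6 share 43 bases (MT:7927-7969), read in different frames, and these are in capitals.
ATP8 end and ATP6 start: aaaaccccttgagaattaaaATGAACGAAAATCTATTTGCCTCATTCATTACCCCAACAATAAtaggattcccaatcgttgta

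The share of 50-base windows of each mitochondrial gene that also occurs in an annotated nuclear transcript was highest for COX2, where all 635 windows were shared, followed by 99.9% for COX3, 99.5% for ATP6, 98.8% for ND4L and 98.0% for ND3. It was 62.2% for ND4 and 51.1% for COX1. For ND2 and ND5 it was 8.19% and 7.61%, and for ND1, CYTB, ATP8 and ND6 no window was shared. The search covers annotated transcripts only, which matters for ATP8. Most of ATP8 lies in the 230 bases between COX2 and ATP6. Their copies on chromosome 1, Gm28661 and Gm10925, lie 233 bases apart, so an unannotated copy of ATP8 may lie between them. None of the 7 copies on chromosome 1 is a row of the table, nor is either mitochondrial ribosomal RNA. No source used here says how reads matching both genomes were treated, so the levels of COX2, COX3, ATP6, ND3 and ND4L are uncertain. The level of ATP8 may be uncertain for the same reason.

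Mean levels of the mitochondrial genes spanned more than 3 orders of magnitude, from COX1 down to ND6, which is on the opposite strand. The 12 genes on the heavy-strand transcript are made from the same precursor, and their means ran from 56.0 FPKM for ND3 to 9394 FPKM for COX1. Values are FPKM (fragments scaled to gene length and to library depth). Over 18 libraries COX1, the catalytic core of complex IV, had the highest mean at 9394 FPKM. CYTB, the only mitochondrial subunit of complex III, followed at 5144 FPKM, ND1 at 5021 FPKM and ND2 at 2812 FPKM. ND5 and ND4 stood at 1675 and 1669 FPKM. The 5 genes with over 90% of windows shared were all lower, from 56.0 FPKM for ND3 to 396 FPKM for COX2. ATP8 had a mean of 84.1 FPKM, and ND6, the only one of the 13 on the opposite strand, had 2.24 FPKM. ND6 rested on 12 to 126 fragments a library, against 271150 to 878104 for COX1. The order of these means is not read as an order of RNA abundance, and the part of shared sequence or gene overlap in it was not tested.

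**Figure D1:**
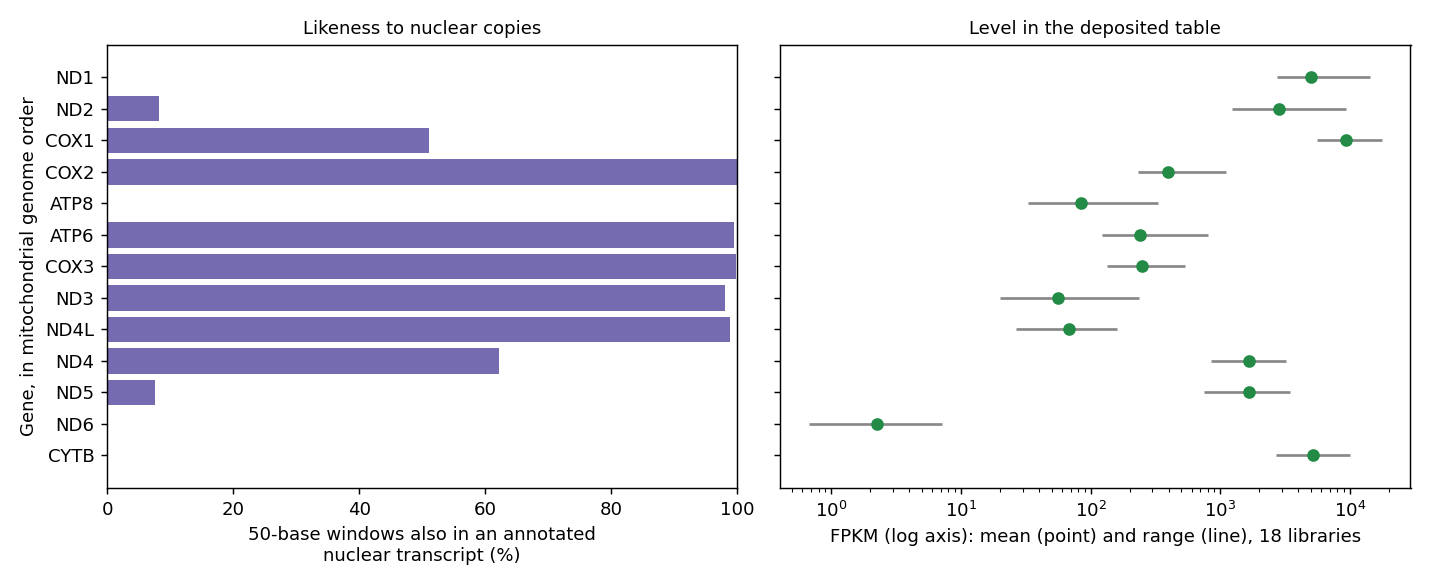
Left, share (%) of the 50-base windows of each of the 13 mitochondrial genes that also occur in an annotated nuclear transcript; right, FPKM on a log axis, with the mean of 18 libraries as a point and their range as a line. The 5 genes above 90% shared have means between 56.0 and 396 FPKM, while ND1 and CYTB, with no shared window, have means of 5021 and 5144 FPKM, and ND6 and ATP8, also with no shared window, are low. An unannotated copy of ATP8 on chromosome 1 would not be seen in this search.

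RNA from the mitochondrial genome was more abundant in untreated flaps than in most flaps over a spacer. Fragments from the 13 genes made up 7.44, 6.24 and 4.19% of all fragments in Control libraries 1, 2 and 3. They made up 4.92, 2.82 and 5.30% in D15L100, 2.91, 3.10 and 2.55% in D15L150 and 2.72, 2.44 and 2.00% in D15L200. In D100L150 the share was 2.14, 2.34 and 3.81%, and in D150L150 1.93, 2.12 and 2.59%. D15L100 overlapped Control, whereas the libraries of the other 4 spacer groups all lay below the lowest Control. The 86 nuclear genes together made up between 0.718% and 1.37% of fragments. Their group means were 1.18 ± 0.177% in Control and 0.947 ± 0.0652% in D150L150 (SD, n = 3).

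Depth was similar throughout, from 28414499 fragments in D100L150 library 2 to 35304208 in D15L200 library 1, as recovered from the steps in the FPKM values. Control library 1 stood apart from the other Control libraries on the first principal component of all genes (-69.87 against 1.31 and -13.92), which held 37.7% of the variance. D100L150 library 1 stood apart from its group on the same component (-49.65 against 11.1 and -16.8). Where leaving out 1 Control library moved a difference printed for a member in the mean of the spacer groups by over 1.5 times, or turned its sign, the value without that library is given.

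CYTB, of which no 50-base window occurs in an annotated nuclear transcript, is described first. Its level was 10044, 9641 and 6355 FPKM in Control libraries 1, 2 and 3, and 7649.9, 4345 and 7880.0 FPKM in D15L100. It was 4668, 4873 and 3891 FPKM in D15L150, 4161, 3794 and 3113 in D15L200, 2671, 3544 and 5797 in D100L150 and 2947, 3149 and 4062 in D150L150. All libraries of the last 4 groups lay below the lowest Control library, and D15L100 overlapped Control. Averaged over the 5 spacer groups, the difference from Control was -1.01 ± 0.23 (SE) on the log2(FPKM + 1) scale, on which every log2 difference below is given. With quantile scaling, which gives every library the same set of values, it was -0.25. Such scaling limits how far the most abundant genes can differ between libraries. The part of this limit in the smaller CYTB difference was not tested.

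ND1, a membrane core subunit of complex I, had the largest SD in FPKM among untreated flaps. Control libraries 1, 2 and 3 had 14185, 8742 and 6053 FPKM. D15L100 had 6661, 3412 and 7923 FPKM, D15L150 4071, 4231 and 3742 and D15L200 3195, 3159.9 and 3054. Only D15L100 overlapped Control among these 3 groups. In D100L150 the values were 3641, 3252 and 5775 FPKM and in D150L150 2728, 3243 and 3303 FPKM, all below the lowest Control library. The log2 difference of the spacer mean was -1.22 ± 0.25, and -0.42 with quantile scaling.

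The other mitochondrial genes of complex I were lower as well. ND2 went from 5703 ± 3238 FPKM in Control to 1428 ± 169 in D150L150 (SD, n = 3), with a log2 difference of the spacer mean of -1.33 ± 0.30 (-0.85 with quantile scaling). For ND4 and ND5 that difference was -0.98 ± 0.24 and -1.10 ± 0.25. ND4L, which is nearly all shared with Gm10222, had -1.29 ± 0.28. ND3 had -1.19 ± 0.43, and its Control libraries spread from 43.5 to 235 FPKM, so every spacer group but D150L150 overlapped them. Without Control library 1 the ND3 difference was -0.50. ND6 had the smallest difference, -0.44 ± 0.28, with 2.88, 2.21 and 3.61 FPKM in Control and 7.09, 2.49 and 2.10 FPKM in D15L100. At this low level the ND6 difference was -0.67 with a pseudocount of 0.1 and -0.69 with voom.

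The mitochondrial subunits of complex IV build its catalytic core. COX1 stood at 17608, 17139 and 11735 FPKM in Control and at 14298, 7825 and 13855 in D15L100. D15L150 had 7445, 8382 and 7056 FPKM, D15L200 8173, 6991 and 5841, D100L150 6395, 6838 and 9947 and D150L150 5614, 6169.8 and 7782. Every library of these 4 groups lay below the lowest Control library. The log2 difference of the spacer mean was -0.96 ± 0.20 for COX1, -1.20 ± 0.26 for COX2 and -1.13 ± 0.24 for COX3. With quantile scaling the COX1 difference was -0.045, with -1.23 for COX2 and -1.18 for COX3. COX1 was the most abundant mitochondrial gene, and the part of its abundance in its smaller difference was not tested.

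The 2 mitochondrial subunits of ATP synthase had the lowest median difference of any complex. ATP6, the membrane subunit that forms part of the proton path, had 800.2, 391 and 283 FPKM in Control and 123, 157 and 158 FPKM in D150L150. ATP8 had 333, 156 and 98.4 FPKM in Control, 119, 64.8 and 147 in D15L100 and 43.3, 59.0 and 40.3 in D150L150. For both genes Control library 1 was far above the other Control libraries, and D150L150 did not overlap Control. The log2 difference of the spacer mean was -1.31 ± 0.27 for ATP6 and -1.59 ± 0.30 for ATP8, which share the 43 bases shown above.

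In the fit over 13078 genes, 11 of the 13 mitochondrial genes were called lower than in Control when the spacer groups were averaged (limma, Benjamini-Hochberg adjusted p under 0.05), all but ND3 and ND6. Of all genes tested, 3.56% were called, 0.726% as lower and 2.84% as higher. Nothing is read from this count, because the contrast is the one that drew attention to the genes. The median log2 difference was -1.19 over the 13 genes and -0.04 over all genes tested. Without Control library 1 the count was 0 and the median -0.89, and without Control library 2 the count was 2 (ATP6 and ATP8). With quantile scaling the count was 6, without COX1, CYTB, ND1, ND2 and ND4. These are among the most abundant of the 13, but ND5, with a mean of 1675 FPKM beside 1669 FPKM for ND4, stayed called. The part of abundance in the lost calls was not tested.

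The spacer groups differed in how far the 13 genes lay below Control. In D15L100 none was called and the median was -0.44. In D15L150 none was called and the median was -1.07, and no gene of the whole table was called in either group (percent called 0). D15L200 had 9 called lower with a median of -1.45, where 1.56% of all genes were called and 0.13% called lower. D100L150 had 1, ATP8, with a median of -1.19 against 1.38% of all genes called and 0.321% called lower, and D150L150 had 11 with a median of -1.48 against 2.42% and 0.398%. All 5 differences share the same 3 Control libraries, so these counts are not independent of each other.

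These group counts moved with single libraries. Without Control library 1 or without Control library 2, the counts for D15L200, D100L150 and D150L150 were all 0. The D15L200 count was also 0 without any one of its own libraries, without D15L150 library 2 or without D150L150 library 1. It was 2, 3, 5 and 5 without D100L150 library 2, D150L150 library 2, D150L150 library 3 and D15L100 library 1. The D150L150 count was 0, 2 and 0 without its libraries 1, 2 and 3, and 6 without D15L150 library 2. The D100L150 count was 10 without its library 3, 0 without its library 1, 7 and 2 without D15L100 libraries 2 and 3, and 3 without Control library 3. The D15L150 count was 6 and 1 without D15L100 libraries 2 and 3.

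By range, 12, 11, 9 and 13 of the 13 mitochondrial genes had every D15L150, D15L200, D100L150 or D150L150 library below the lowest Control library. Among all genes tested the same held for 14%, 13.8%, 10.8% and 12.1%. In D15L100 it held for none of the 13 and for 3.97% of all genes. No mitochondrial gene had all 15 spacer libraries below the lowest Control library.

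**Figure D2:**
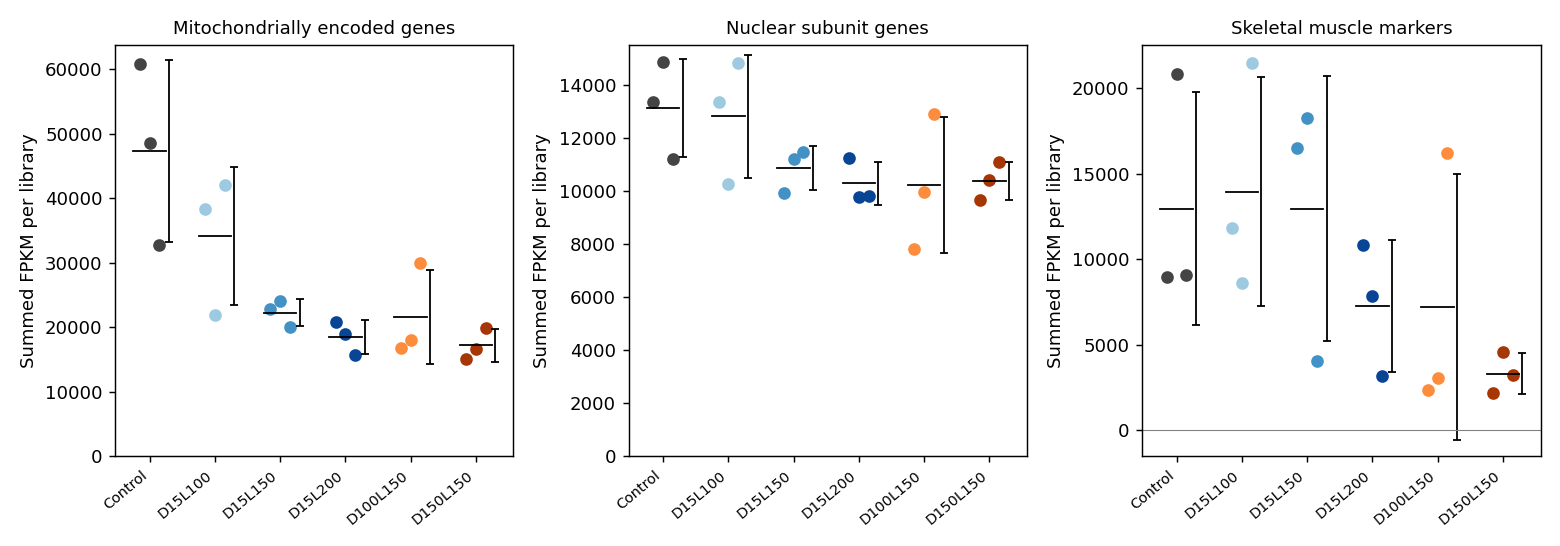
Summed FPKM of each library (points) for the 13 mitochondrial genes, the 86 nuclear genes and 19 skeletal muscle markers, with the mean of 3 libraries (line) and SD (bar) by group. Mitochondrial sums of D15L150, D15L200, D100L150 and D150L150 all lie below the lowest Control sum of 32656 FPKM, while D15L150 libraries 1 and 2 have muscle sums of 16477 and 18265 FPKM, inside the Control range.

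The nuclear genes of the same complexes differed far less from Control. None of the 86 was called in any of the 6 comparisons with Control, beside the shares of all genes given above (limma). In the spacer mean 28 of the 86 had an unadjusted p under 0.05, beside 2926 of all 13078 genes. Without D100L150 library 3 the nuclear count was 3 in the spacer mean, 5 in D100L150 and 1 in D150L150, and without D15L100 library 3 it was 1 in the spacer mean. In the mean of the spacer groups 84 of 86 log2 differences were negative, with a median of -0.29, beside 56.6% negative among all genes tested. Without Control library 2, 75 of 86 were negative with a median of -0.19. In D15L100, D15L150, D15L200, D100L150 and D150L150 the median was -0.04, -0.29, -0.37, -0.40 and -0.33. In D15L150, D15L200, D100L150 and D150L150, 22, 38, 5 and 39 of the 86 had all libraries below the lowest Control library. Those counts stand beside the same 14%, 13.8%, 10.8% and 12.1% of all genes.

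The nuclear medians of the 5 complexes lay close to each other in the spacer mean. The median log2 difference of the spacer mean was -0.32 for the 40 nuclear genes of complex I, -0.26 for the 4 of complex II, -0.28 for the 8 of complex III, -0.26 for the 17 of complex IV and -0.25 for the 17 of complex V. The mean difference was larger in complex IV, at -0.43, than in the other 4, at -0.28 to -0.25. In D15L150 the nuclear median was -0.39 in complex IV and -0.22 in complex II. In the spacer mean, the median of the mitochondrial genes was -1.19 in complex I, -1.01 in complex III, -1.13 in complex IV and -1.45 in complex V. In each complex that has subunits from both genomes, the nuclear median of the spacer mean was thus closer to 0 than the mitochondrial one. Complex II, all of whose subunits are nuclear, lay with the nuclear genes of the others.

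**Figure D3:**
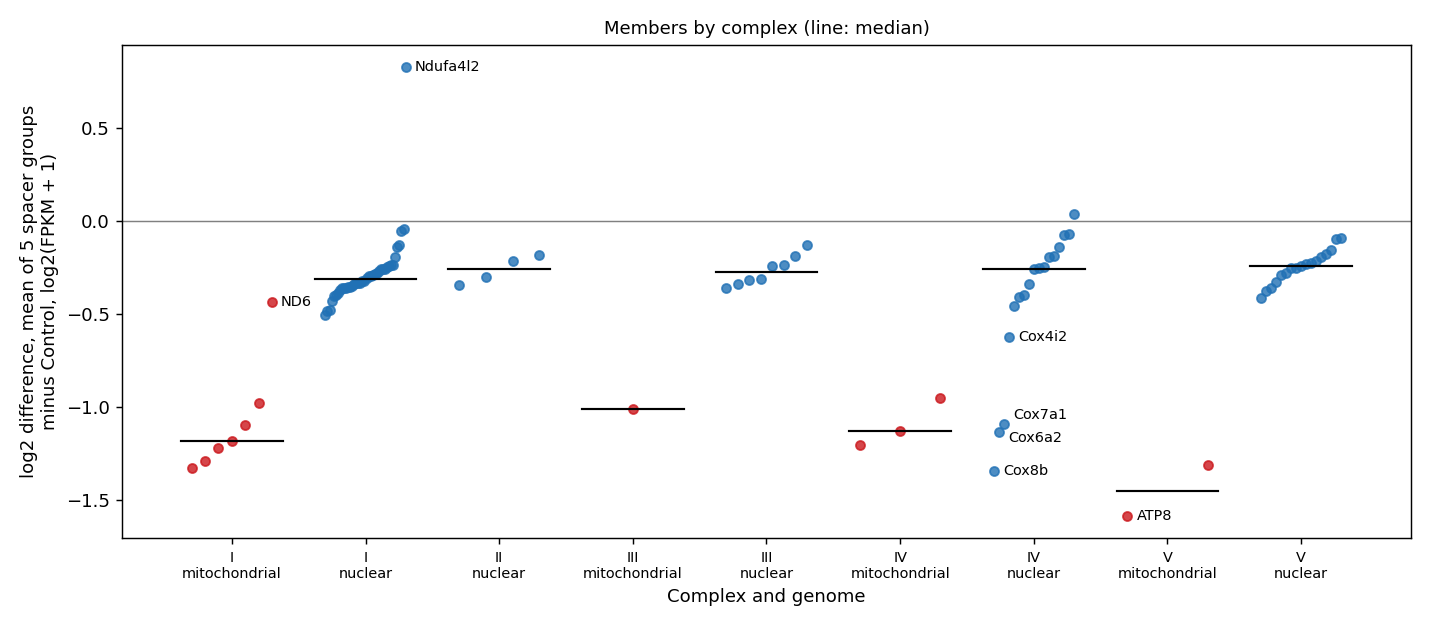
Log2 difference from Control averaged over the 5 spacer groups, on the log2(FPKM + 1) scale, for each of the 99 genes by complex and genome (red, mitochondrial; blue, nuclear; black line, median). Nuclear medians lie between -0.32 and -0.25 and mitochondrial medians between -1.45 and -1.01; Cox8b, Cox6a2 and Cox7a1 are the lowest nuclear genes and Ndufa4l2 the highest.

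The same difference between the genomes is given here library by library, as a description and not as separate support. The mean log2(FPKM + 1) of the mitochondrial genes minus that of the nuclear genes was 3.39, 2.65 and 2.54 in Control libraries 1, 2 and 3. It was 2.68, 2.11 and 2.54 in D15L100, 2.19, 2.02 and 1.92 in D15L150 and 1.80, 2.07 and 1.68 in D15L200. It was 2.17, 1.89 and 2.16 in D100L150 and 1.71, 1.68 and 1.77 in D150L150. Group means ran in the order Control (2.86 ± 0.46), D15L100 (2.45 ± 0.29), D100L150 (2.07 ± 0.16), D15L150 (2.05 ± 0.14), D15L200 (1.85 ± 0.20) and D150L150 (1.72 ± 0.04) (SD, n = 3). D100L150 and D15L150 differed by less than their SDs. The spacer mean was 0.83 below Control, and 0.57 below it without Control library 1.

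The most abundant nuclear subunits stood closer to Control than the mitochondrial genes did. Atp5b, the catalytic beta subunit of ATP synthase, had the highest nuclear mean at 559 FPKM. It had 549.9, 715 and 514 FPKM in Control and 517, 502 and 560.0 in D150L150, and the groups overlapped. Its log2 difference of the spacer mean was -0.10 ± 0.13. Atp5a1, the alpha subunit, had -0.16 ± 0.16 and Atp5j2 had -0.23 ± 0.16. Without Control library 2 the sign turned for Atp5b (0.043) and Atp5a1 (0.0047). Without Control library 3 Atp5b had -0.19, and without Control library 1 Atp5a1 had -0.25.

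In complex III, Uqcrh, the hinge protein near cytochrome c1, was the most abundant nuclear gene. It had 376, 354 and 268 FPKM in Control and 225, 249 and 293 in D150L150, with overlap, and a log2 difference of the spacer mean of -0.36 ± 0.15. Uqcrb had -0.25 ± 0.14 and Uqcr10 -0.31 ± 0.16. These were -0.14 and -0.20 without Control library 2, and -0.38 and -0.48 without Control library 3.

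In complex II, Sdhb, the iron-sulfur subunit, had 93.5, 155 and 111 FPKM in Control and 75.1, 85.4 and 83.4 FPKM in D150L150. Every D150L150 library lay below the lowest Control library for this gene. Its log2 difference of the spacer mean was -0.34 ± 0.19. The membrane anchors Sdhc and Sdhd had -0.31 ± 0.13 and -0.22 ± 0.11. Without Control library 2, Sdhb had -0.14 and Sdhd -0.13.

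Among the nuclear genes of complex I the largest negative differences were those of Ndufb7, Ndufa5 and Ndufs7. Ndufb7, an accessory subunit on the intermembrane side, had 212, 182 and 142 FPKM in Control and 112, 132 and 112 in D150L150, without overlap. Its log2 difference of the spacer mean was -0.51 ± 0.15. Ndufs7, which holds an iron-sulfur cluster, had -0.48 ± 0.19, and Ndufa5 had -0.49 ± 0.24. Ndufa3, Ndufb9 and Ndufa6, the most abundant of these nuclear genes, had -0.35 ± 0.14, -0.27 ± 0.17 and -0.36 ± 0.17. Without Control library 2 Ndufb9 had -0.12. Without D100L150 library 3, Ndufb7, Ndufs7 and Ndufa11 were called lower in the spacer mean. Ndufb7 was also called without D15L100 library 3. The near copies Ndufb4b, Ndufb4c and Ndufs6b were the least abundant, at 3.31 to 9.13, 1.53 to 7.31 and 2.98 to 5.97 FPKM, and their reads may not be separable from Ndufb4 and Ndufs6.

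Complex IV held the nuclear genes with the largest negative differences. Several of its subunits exist in a widely expressed form and in a form of heart and skeletal muscle: Cox6a1 and Cox6a2, Cox7a2 and Cox7a1, Cox8a and Cox8b. In muscle fibres the second of each pair replaces or joins the first. Mouse skin carries a thin muscle layer, so both forms can occur in a skin sample.

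Cox6a2 had 113, 282 and 137 FPKM in Control libraries 1, 2 and 3 and 119.7, 114 and 272 in D15L100. It had 157, 159 and 39.2 FPKM in D15L150 and 96.8, 76.4 and 43.4 in D15L200. It had 35.9, 25.1 and 245 FPKM in D100L150 and 18.5, 59.8 and 32.7 in D150L150. D150L150 was low throughout, while D15L150 library 3 and D100L150 library 3 lay far from the other libraries of their groups. The log2 difference of the spacer mean was -1.14 ± 0.60, and -0.75 without Control library 2.

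Cox6a1, the common form, had the nuclear difference closest to 0. It had 255, 220.1 and 213 FPKM in Control, 185, 201 and 245 in D15L150 and 261, 281 and 258 in D150L150. Here D150L150 lay above every Control library, the opposite of Cox6a2. Its log2 difference of the spacer mean was 0.04 ± 0.10, and 0.11, 0.0092 and -0.014 without Control libraries 1, 2 and 3.

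The share of the muscle form within each pair sums this up. Cox6a2 made up 30.6% to 56.2% of the FPKM of its pair in Control and 6.62% to 17.5% in D150L150. Cox8b made up 30.9% to 53.1% in Control and 6.89% to 18.2% in D150L150. Cox7a1 made up 9.32% to 39.1% in Control and 4.40% to 8.03% in D150L150. All 3 shares were below the Control range in every D150L150 library. D100L150 spanned almost the whole range, with library 3 at 51.9%, 34.2% and 54.5% for Cox6a2, Cox7a1 and Cox8b. The log2 difference of the spacer mean was -1.35 ± 0.60 for Cox8b and -1.10 ± 0.72 for Cox7a1, and -0.14 ± 0.13 and -0.07 ± 0.16 for their common forms Cox8a and Cox7a2. Without Control library 2 the Cox7a1 difference was -0.45. Without Control library 1 it was -0.05 for Cox8a and 0.05 for Cox7a2, which had -0.21 without Control library 3.

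**Figure D4:**
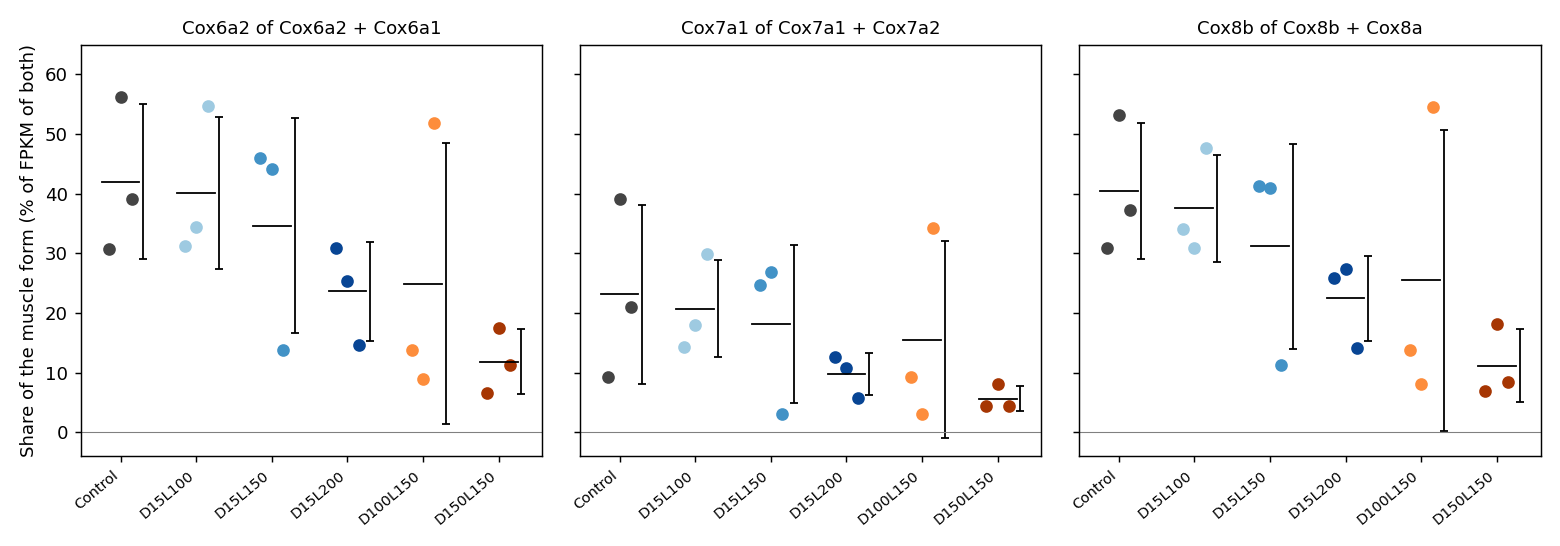
Share of the muscle form in the FPKM of each pair of complex IV subunits (%), by library (points), with group mean (line) and SD (bar, n = 3). The 3 D150L150 libraries have Cox6a2 shares of 6.62% to 17.5%, below the Control range of 30.6% to 56.2%, and D100L150 and D15L150 each hold 1 library far from the other libraries of the group.

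The muscle forms followed skeletal muscle actin, Acta1, across the 18 libraries. On the log2 scale Pearson's r with Acta1 was 0.980 for Cox6a2, 0.964 for Cox8b and 0.940 for Cox7a1, and Spearman's rho was 0.969, 0.934 and 0.924. These and the other correlations with Acta1 (8 genes in all) are a description with no p, since the genes were chosen with these data known. Without the 2 libraries farthest from the median of Acta1 (D150L150 1 and D100L150 2), r was 0.973, 0.949 and 0.930. The r of deviations from the group means was 0.974, 0.961 and 0.956, so the relation was present within groups. In bulk skin, fewer muscle fibres and less RNA per fibre cannot be told apart.

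The common forms gave another picture. For Cox6a1 r was -0.629 and rho -0.523, with r = -0.565 without the 2 farthest libraries. For Cox7a2 r was 0.0592 and rho 0.0919. For Cox8a r was -0.374 and rho -0.416.

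Of the 13 mitochondrial genes CYTB and ND1 were set against Acta1. For CYTB r was 0.770 and rho 0.827, and r was 0.738 without the 2 farthest libraries. For ND1 r was 0.650 and rho 0.721, and r was 0.593 without them. The r of deviations from group means was 0.701 for CYTB and 0.518 for ND1. The difference between these correlations and those of the muscle forms was not tested.

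**Figure D5:**
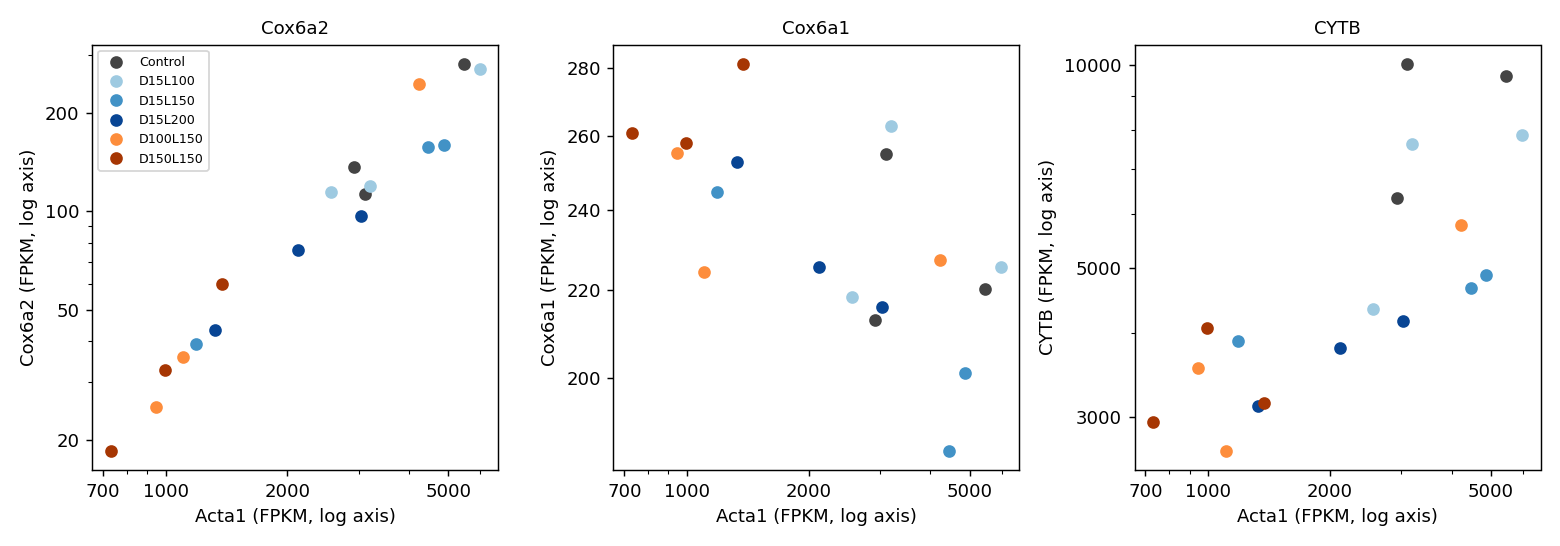
FPKM of Cox6a2, Cox6a1 and CYTB against FPKM of Acta1 in the 18 libraries, both on log axes, coloured by group. Cox6a2 follows Acta1 closely (r = 0.980), Cox6a1 runs the other way (r = -0.629), and CYTB rises with Acta1 (r = 0.770) with the Control libraries among the highest at their Acta1 level.

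Muscle marker RNA and mitochondrial RNA did not move together in every library. The summed FPKM of the 19 skeletal muscle markers was 8945, 20817 and 9080.1 in Control libraries 1, 2 and 3. Control library 1, with a muscle sum close to that of Control library 3, had the highest mitochondrial sum of the 18 libraries, 60795 FPKM. D15L150 libraries 1 and 2 had muscle sums of 16477 and 18265 FPKM, above Control libraries 1 and 3, and mitochondrial sums of 22727 and 24079 FPKM, below all Control libraries. D150L150 had muscle sums of 2198, 4544 and 3204 FPKM. All 19 muscle markers had a negative log2 difference in the spacer mean, with a median of -0.91, and none was called. With the mean level of the muscle markers as a covariate, the median difference was -1.003 for the mitochondrial genes and -0.20 for the nuclear genes, all 13 mitochondrial differences stayed negative, and 3 were called (ATP8, COX1 and ND4L). With this covariate the difference was -0.38 for Cox6a2, -0.21 for Cox7a1 and -0.60 for Cox8b, and 78 of the 86 nuclear differences were negative. Nothing is read from these signs, since the genes were chosen by their differences from Control. Muscle level differed between the groups, so the covariate cannot separate it from group. The part of muscle in the lower mitochondrial RNA was not tested.

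Markers of other cell types also moved with the groups. Keratinocyte markers had 6 of 12 called higher in the spacer mean (2.84% of all genes), with a median of 1.91. Their summed FPKM was 2013 to 4843 in Control, 5035 to 9500 in D15L100, 7095 to 15865 in D15L150, 11172 to 15222 in D15L200, 10983 to 14328 in D100L150 and 12452 to 14362 in D150L150. No keratinocyte marker was at 0 in any library, so the labelled tissue was represented in all 18. Endothelial markers had 10 of 10 negative differences, with a median of -0.78 and none called. Their summed FPKM was 803, 235 and 392 in Control libraries 1, 2 and 3. It was 186 to 318 in D15L100, 143 to 228 in D15L150 and 152 to 335 in D15L200. In D100L150 it was 231 to 376 and in D150L150 148 to 303, so only D15L150 did not overlap Control. Erythroid markers had 5 of 5 positive differences, with a median of 1.12 in the spacer mean and 2.24 in D100L150. Fibroblast and macrophage markers had 8 of 8 positive each, with medians of 0.24 and 0.33. Neutrophil markers had 5 of 7 negative with a median of -0.15, and adipocyte markers 4 of 7 with a median of -0.06. None of the genes in these last 5 lists was called. Summed erythroid FPKM was 114 to 666 in Control and 791 to 3507 in D100L150, without overlap. Summed neutrophil FPKM was 1076 to 6555 in Control and 2239 to 10262 in D100L150, with overlap. The part of any of these cell types in the lower mitochondrial RNA was not tested.

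Ndufa4l2 was the nuclear member that differed most in the positive direction. It is a target of hypoxia-inducible factor and a relative of Ndufa4, a subunit of complex IV. Its level was 32.2, 46.3 and 82.1 FPKM in Control, 86.0, 91.9 and 42.0 in D15L100 and 48.2, 93.7 and 69.9 in D15L150. It was 92.1, 93.2 and 151 FPKM in D15L200, 138, 98.5 and 77.5 in D100L150 and 121, 94.5 and 102 in D150L150. D15L200 and D150L150 lay above the Control range, and the other groups overlapped it. The log2 difference of the spacer mean was 0.83 ± 0.29, and -0.08 ± 0.18 for Ndufa4. Without Control library 1 the Ndufa4l2 difference was 0.52. For Ndufa4 it was -0.036, 0.00060 and -0.20 without Control libraries 1, 2 and 3. Cox4i2, a form of the complex IV subunit 4 also linked to low oxygen, went the other way with -0.63 ± 0.25, at 1.72 to 6.31 FPKM against 276 to 487 FPKM for its common form Cox4i1. Cox6b2, a form known from testis, ranged from 1.34 to 4.34 FPKM beside 340 to 571 FPKM for Cox6b1.

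The tests between spacer groups compare no Control library, although the spread is estimated over all 18 libraries. Along the series D15L100, D15L150 and D15L200, where the L number differs, the moderated F test of limma called none of the 99 genes and none of the 13078 (percent called 0). Unadjusted p was under 0.05 for 10 of the 99 genes, 8 of them mitochondrial, and for 378 of all genes, and the smallest adjusted p among the 99 was 0.993. Along D15L150, D100L150 and D150L150, where the D number differs, none was called either (percent called 0). Unadjusted p was under 0.05 for 1 of the 99, Cox6a1, and for 751 of all genes, with a smallest adjusted p of 0.743 among the 99.

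Of the 6 pairs of spacer groups compared, D15L200 and D15L100 had the largest mitochondrial median difference. All 13 mitochondrial genes were lower in D15L200, with a median log2 difference of -0.87, from -1.20 ± 0.39 (SE) for ND2 to -0.74 ± 0.26 for COX1. Of these 13, 11 had an unadjusted p under 0.05, but none was called, and each had an adjusted p of 0.849 (limma, Benjamini-Hochberg over 13078 genes, percent called 0). Among all genes 678 had an unadjusted p under 0.05. Mitochondrial genes made from the same precursor are not independent, so the 11 are not separate results. Between the same 2 groups all 19 muscle markers were lower (median -1.17) and all 12 keratinocyte markers higher (median 1.09), with none called. The part of tissue make-up in the mitochondrial differences was not tested. The nuclear genes had a median of -0.32, with 84 of 86 negative and 7 at an unadjusted p under 0.05. The smallest of those p-values belonged to Ndufb4b, at -0.79 ± 0.19, a near copy of Ndufb4 whose reads may not be separable from it. D15L100 library 2, with 4345 FPKM of CYTB, lay close to D15L200 library 1 with 4161 FPKM, whereas D15L100 libraries 1 and 3 lay above, with 7649.9 and 7880.0 FPKM.

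D15L150 lay between these groups. Against D15L100 the mitochondrial median was -0.64 and the nuclear median -0.22, with 98 of 99 differences negative. Of the 99, 5 had an unadjusted p under 0.05, all mitochondrial, and the smallest adjusted p was 0.885 (limma, percent called 0). Against D15L150, D15L200 had medians of -0.31 and -0.11 and a smallest adjusted p of 0.999 (limma, percent called 0).

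D150L150 against D15L150 had a mitochondrial median of -0.38 and a nuclear median of -0.09, with no gene called of 13078 (percent called 0) and a smallest adjusted p among the 99 of 0.890 (limma). The muscle form Cox6a2 had -1.56 ± 0.78 and Cox8b -1.38 ± 0.77, while the common forms Cox6a1 and Cox8a had 0.35 ± 0.13 and 0.37 ± 0.17. None of these 4 passed the adjusted threshold. D100L150 against D15L150 had medians of -0.16 and -0.13 with a smallest adjusted p of 0.445 (limma, percent called 0). D150L150 against D100L150 had medians of -0.32 and 0.04 with a smallest adjusted p of 0.953 (limma, percent called 0). In simulated data, changes were put into D150L150 and tested against D15L150, with the residual spread of each gene over all 18 libraries. The same fit recovered 66.2% of 2-fold and 91.4% of 4-fold changes among 13078 genes, so smaller differences between spacers could be missed. The noise was drawn independently for each gene and from all groups, so these shares may not hold for this pair of groups.

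Other genes that serve the same machinery were followed in 11 lists covering assembly factors, electron carriers, mitochondrial RNA and DNA handling, biogenesis regulators, protein import, the tricarboxylic acid cycle, fatty acid oxidation and energy shuttles. Of their 169 distinct genes tested, none was called in the spacer mean, where 3.56% of all genes were called, and 140 had negative differences with a median of -0.15. No list had a median outside -0.30 to -0.06.

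The list of mitochondrial transcription and RNA processing is the one closest to the 13 genes. None of its 22 tested genes was called, 17 were negative, and the median was -0.11. The smallest p in it belonged to Fastkd1, of the FASTK family that processes mitochondrial RNA, at -0.25 ± 0.07, followed by Fastk at -0.33 ± 0.11, and Tfb2m, the transcription initiation factor, at -0.26 ± 0.09. Fastkd5, which processes transcripts that lack flanking tRNAs, had 0.19 ± 0.08. In D150L150 against Control, Fastkd1 (-0.39 ± 0.09) and the complex III assembly factor Ttc19 (-0.65 ± 0.16) were called lower, the only 2 of the 169, beside 0.398% of all genes.

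Mitochondrial DNA maintenance had 7 of 9 negative with a median of -0.11, and its single-stranded DNA-binding protein Ssbp1 had -0.30 ± 0.11. Of the 14 biogenesis regulators 9 passed the filter, 5 of them were negative and the median was -0.06. Among them Nrf1, which drives many nuclear subunit genes, had 0.07 ± 0.07, Gabpb1 -0.12 ± 0.10, Pprc1 0.13 ± 0.11 and Ppard 0.46 ± 0.18.

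Assembly factors had medians of -0.16 for complex I (11 of 14 negative), -0.15 for complex IV (18 of 19) and -0.24 for complexes II, III and V (11 of 13). Cox17, a copper chaperone of complex IV, had -0.52 ± 0.20. Ndufaf4 had -0.38 ± 0.16 and Uqcc1 -0.44 ± 0.12. The tricarboxylic acid cycle had 19 of 20 negative with a median of -0.25, and its smallest p belonged to Dld, a subunit of several dehydrogenase complexes, at -0.34 ± 0.13. Fatty acid oxidation had 13 of 14 negative with a median of -0.20, and its smallest p belonged to Acadl at -0.42 ± 0.13.

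Protein import had 19 of 23 negative with a median of -0.12, and Pam16, part of the import motor, had -0.44 ± 0.14. Electron carriers had 12 of 16 negative with a median of -0.14. Coq8a, needed for coenzyme Q synthesis, had the largest difference there, -1.32 ± 0.44. In the list of ATP exchange and energy shuttles 8 of 10 were negative with a median of -0.30, but Ckmt1, the ubiquitous mitochondrial creatine kinase, had 1.14 ± 0.35 and Slc25a5, an ADP/ATP carrier, 0.31 ± 0.12.

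Promoter sequence was searched for motifs of factors known to regulate nuclear subunit genes, in RefSeq windows from 250 bases before to 50 after the start site (GRCm38.p6, both strands). Of the 86 nuclear genes 69 had an entry. The NRF1 motif GCGCATGCG was found for 8 of 69 genes (11.6%) against 1.95% of 27025 genes with an entry. The YY1 motif AAGATGGC was found for 10 (14.5% against 3.19%), and the GABP motif CCGGAAGT for 5 (7.25% against 4.31%). The ERRA motif TCAAGGTCA was found for 2 (2.9% against 0.466%). The motifs were matched exactly, and none contains another. The 6 NRF1 matches upstream of the start site are shown, as they include Cox6a1, the common form described above. The motif, on either strand, is in capitals. The stretches lie at chr15:102671056-102671114 for Atp5g2, chr5:108434416-108434474 for Atp5k, chr9:44920950-44920992 for Atp5l, chr5:115349087-115349145 for Cox6a1 and chr2:36049339-36049372 for Ndufa8, all on the minus strand, and at chr17:56717677-56717735 on the plus strand for Ndufa11.
Atp5g2: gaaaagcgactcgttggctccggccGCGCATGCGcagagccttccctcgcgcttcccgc
Atp5k: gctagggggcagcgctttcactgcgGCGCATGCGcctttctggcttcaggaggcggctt
Atp5l: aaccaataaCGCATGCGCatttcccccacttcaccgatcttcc
Cox6a1: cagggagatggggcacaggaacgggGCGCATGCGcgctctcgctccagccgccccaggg
Ndufa8: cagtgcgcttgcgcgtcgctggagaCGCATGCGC
Ndufa11: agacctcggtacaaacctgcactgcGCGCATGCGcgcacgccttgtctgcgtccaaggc

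The capitals start 42, 50, 241, 162, 9 and 60 bases upstream of the start site in Atp5g2, Atp5k, Atp5l, Cox6a1, Ndufa8 and Ndufa11. The log2 differences of the spacer mean for the same 6 genes were -0.29 ± 0.12, -0.33 ± 0.17, -0.22 ± 0.15, 0.04 ± 0.10, -0.39 ± 0.14 and -0.33 ± 0.12. Without Control library 1 Atp5g2 had -0.18, and without Control library 2 Atp5k had -0.20 and Ndufa11 -0.21. Of these genes 5 lay near the nuclear median of -0.29 and Cox6a1 lay at 0.04. A match is a description of the letters in the window and says nothing of whether the factor binds in these samples.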

How the data were processed

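Total RNA from skin flaps was sequenced in 18 libraries. The authors deposited FPKM values per gene. The submitters' processing notes list the mm10 build and the tools HISAT2, HTSeq, fastp, DESeq2 and R 3.2.0, with no role given. No source used here gives the annotation, the strand setting or the treatment of reads with several matches. Per the labels' protocols, TRIzol was used for extraction and the VAHTS Universal V6 kit for the libraries.

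From the deposited FPKM values, whole fragment numbers were recovered from the steps between low values for 27742 of 27743 genes (relative tolerance 1e-08), and give 28414499 to 35304208 fragments a library. Genes with at least 1 FPKM in at least 3 of 18 libraries were kept (13078 genes), all 99 members among them. limma 3.58.1 in R 4.3.3 fitted 1 mean per group to log2(FPKM + 1) over all libraries (trend and robust variance moderation), with Benjamini-Hochberg adjustment over 13078 genes and a call at an adjusted p under 0.05. This pseudocount understates differences of low genes. The fit was tested on simulated data.

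The members, the gene lists and the isoform pairs were chosen with earlier results of these data known. The text may name all mitochondrial members, all isoform pairs, up to 8 nuclear members a direction with the largest difference in each comparison, the 3 most abundant nuclear members of each complex, and the 4 genes with the smallest p in each pathway list; Atp5g2, Atp5k, Atp5l, Ndufa8 and Ndufa11 were named for their motif or for a call without 1 library. Sequences come from GENCODE M21 transcripts and RefSeq promoters of GRCm38. Correlations used log2(FPKM + 1) and are given with no p. Alternatives covered the pseudocount, the filter, 4 other scalings, a replicate block, a muscle covariate, only the compared groups, each library left out and, chosen after seeing the data, voom on recovered fragments.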

Additional observations from a re-analysis of the deposited data

How the results depend on the processing

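All 13 mitochondrial differences from Control in the spacer mean stayed negative under every setting run. Nothing is read from this sign, since the genes were chosen by their differences from Control in the same libraries. Their medians were -1.003 to -1.22 outside the settings that leave out a library. None of the comparisons between spacers gained a call. The count of mitochondrial genes called in the spacer mean (11) was 5 with no filter on low values, 6 with quantile scaling and 3 with the muscle covariate; the nuclear count (0) was 1 with quantile scaling and 1 with scaling to genes outside the mitochondrial genome (Ndufb7 each time). With the replicate block the mitochondrial count was 7 in the spacer mean, 0 in D15L200, 0 in D100L150 and 1 in D150L150. The labels do not say whether same-numbered libraries of different groups were paired. Over 45 such pairs the median correlation of their deviations was 0.02 (-0.66 to 0.53), with 18 pairs over 0.1. Only 1 library correlated best with its own number, but such correlations cannot exclude pairing. The D15L200 count (9) was 0 with no filter, 5 with quantile scaling, and 0 with the covariate, with only the compared groups and with voom. The D100L150 count (1) was 0 with no filter, 4 with quantile scaling, 3 with TPM scaling, 5 with scaling outside the mitochondrial genome, and 0 with the covariate, with only the compared groups and with voom. The D150L150 count (11) was 1 with no filter, 0 with the covariate and 1 with only the compared groups. With fewer groups or more terms the fit has fewer residual degrees of freedom. No cause of these shifts in the counts was tested. Leaving out 1 library, the mitochondrial counts ranged from 0 to 11 in the spacer mean, 0 to 6 in D15L150, 0 to 11 in D15L200, 0 to 10 in D100L150 and 0 to 12 in D150L150. The nuclear counts ranged from 0 to 3 in the spacer mean, 0 to 5 in D100L150 and 0 to 1 in D150L150. The mitochondrial minus nuclear difference ranged from -0.99 to -0.57, with -0.83 over all libraries. Of 702 values of 26 of the genes named here under other settings, 6 moved by more than the Control SD. That SD was wide for genes such as ND2, so the few moves are not read as stability. Of 859 summary values (counts, medians and the difference between the genomes) under other settings, 57 moved. ND6 is limited by depth, with 12 to 126 fragments a library.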
